A study of Komagataella pastoris with 6 samples.

Results

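The core histone genes of Komagataella phaffii (listed by the labels as Komagataella pastoris), the methylotrophic yeast also known as Pichia pastoris, were followed in 3 kinds of culture. They were taken as the rows of the count table whose description names histone H2A, H2B, H3 or H4 itself, together with BQ9382_C2-1150 and BQ9382_C2-1155, and without enzymes and chaperones that act on histones. This gave 9 of 5427 genes, all of which passed the filter on low counts. Of these, 3 were annotated as H3 (BQ9382_C1-8120, BQ9382_C2-1150 and BQ9382_C2-3035), 2 as H4 (BQ9382_C1-8125 and BQ9382_C2-1155), 3 as H2A (BQ9382_C2-4685, BQ9382_C4-4500 and BQ9382_C2-4680) and 1 as H2B (BQ9382_C2-4690). RNA was sequenced after 24 h from GS115 (his4, a histidine auxotroph) in YPA, a medium of yeast extract, peptone and acetate (GS115-YPA, libraries A and B), from the prototroph X33 (HIS4) in YPA (X33-YPA, libraries C and D), and from GS115 in YPA with 650 µM added histidine (GS115-YPAH5x, libraries E and F). The labels call every strain wild type in 1 field, whereas the genotype field gives his4 for GS115. X33 and GS115 are 2 strains, so in the comparison of X33-YPA with GS115-YPA the strain and the supply of histidine cannot be told apart. The paper also reports that GS115 grew less well than X33 in YPA, and that added histidine improved its growth. Histidine supply and growth therefore cannot be told apart in either comparison with GS115-YPA.

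Core histones are the proteins around which nuclear DNA is wrapped. H3 pairs with H4 and H2A with H2B, and the pairs assemble into the nucleosome. In budding yeast, histone genes stand in neighbouring pairs, are present in more than 1 copy, and are transcribed mainly in S phase, when new DNA has to be packed. Yeasts also carry variants of H2A and of H3, which have their own places in chromatin. The descriptions used here name no such variant among the 9 genes and do not say whether BQ9382_C4-4500 or BQ9382_C2-3035 is one. H3 and H4 genes had consecutive locus tags in both pairs, BQ9382_C1-8120 with BQ9382_C1-8125 and BQ9382_C2-1150 with BQ9382_C2-1155, and so had H2A and H2B (BQ9382_C2-4685 with BQ9382_C2-4690). Both paired H3 genes were assigned the same UniRef100 protein, and so were both H4 genes.

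The 6 libraries held between 32194047 and 43447246 counts. Levels are given as CPM, that is counts relative to 1000000 counts of the library, with its total scaled by TMM, and are not corrected for gene length. "Rose" and "fell" refer to an adjusted p under 0.05 from edgeR's quasi-likelihood test over all 5426 genes tested. HIS4 (BQ9382_C1-4895) was transcribed in all libraries, with 365 and 501 CPM in libraries A and B, 187 and 220 in C and D, and 207 and 181 in E and F. Counts per gene do not tell its alleles apart, so this level does not check the strain labels. Cultures were grown in duplicate, and the p-values set each difference against the spread between duplicates, estimated over the 3 groups together. The spread of each gene was drawn toward the trend over all genes, which supplied 6.68 degrees of freedom beside 3 from the gene itself.

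Transcripts of the H3 and H4 genes BQ9382_C2-1150 and BQ9382_C2-1155 were scarce in GS115-YPA and abundant in both other groups. The H3 gene BQ9382_C2-1150 had 19.3 and 16 CPM in libraries A and B, 482 and 564 in C and D, and 305 and 262 in E and F. The H4 gene BQ9382_C2-1155 had 8.57 and 7.61 CPM in libraries A and B, 253 and 269 in C and D, and 154 and 113 in E and F. For both genes the GS115-YPA libraries were lowest, the X33-YPA libraries highest, and no group overlapped another. In bulk RNA, a larger share of cells that express a gene and more of its RNA per cell cannot be told apart. In X33-YPA, BQ9382_C2-1150 was thus 29.6-fold higher than in GS115-YPA (log2 fold change 4.89, SE 0.19, edgeR adjusted p = 1.45e-07) and BQ9382_C2-1155 was 32.3-fold higher (log2 fold change 5.01, SE 0.20, edgeR adjusted p = 1.45e-07). In GS115-YPAH5x they were about 16-fold and 16.5-fold higher (log2 fold changes 4.0, SE 0.18, and 4.04, SE 0.19). Both comparisons share the GS115-YPA libraries. The values did not depend on 1 library: leaving out each in turn gave log2 fold changes between 4.72 and 5.06 for these genes in X33-YPA and between 3.8 and 4.23 in GS115-YPAH5x.

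**Figure D1:**
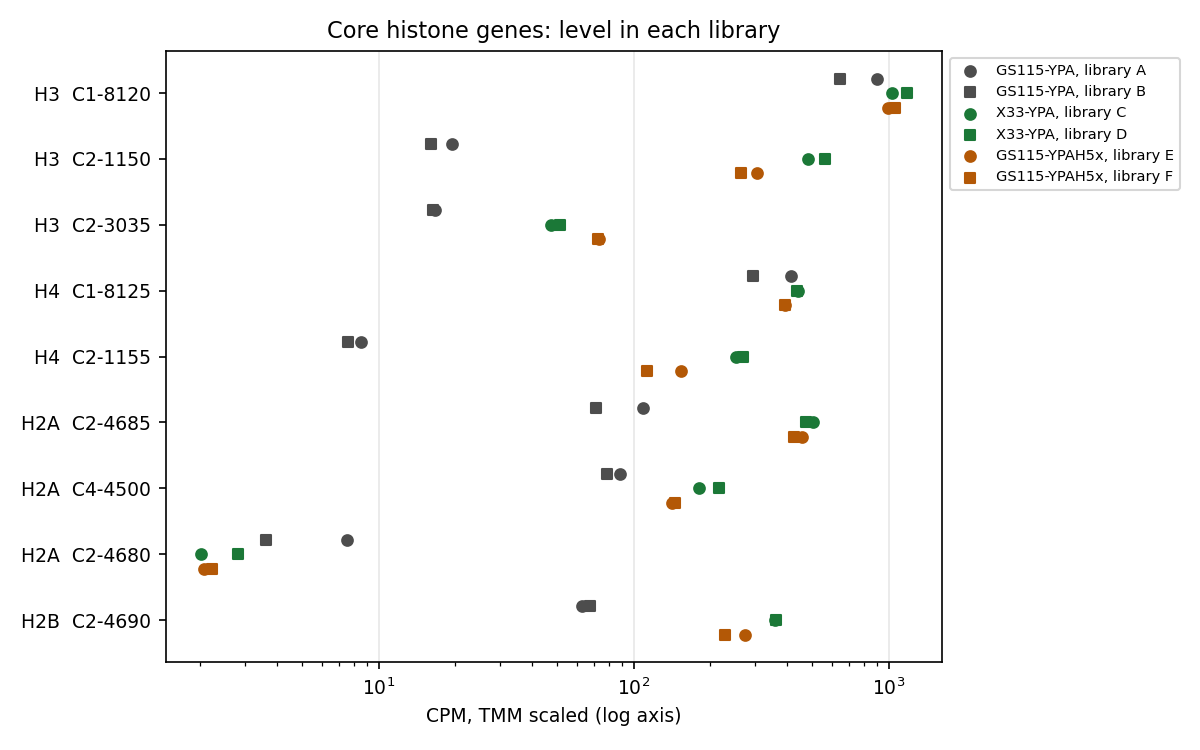
Level of each of the 9 core histone genes in each of the 6 libraries, in CPM scaled by TMM on a log axis; colour marks the group and shape the library within it. BQ9382_C2-1150 and BQ9382_C2-1155 lie between 7.61 and 19.3 CPM in GS115-YPA and at 113 CPM or more in the other libraries, whereas BQ9382_C1-8120 and BQ9382_C1-8125 lie between 294 and 1180 CPM in every library.

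The other H3 and H4 pair was abundant everywhere and changed little. The H3 gene BQ9382_C1-8120 had 901 and 645 CPM in libraries A and B, 1028 and 1180 in C and D, and 990 and 1057 in E and F. The H4 gene BQ9382_C1-8125 had 413 and 294 CPM in libraries A and B, 442 and 437 in C and D, and 391 and 392 in E and F. Both were lowest in GS115-YPA library B, and for BQ9382_C1-8125 the GS115-YPA libraries lay on both sides of those of GS115-YPAH5x. BQ9382_C1-8120 rose in X33-YPA (log2 fold change 0.51, SE 0.18, edgeR adjusted p = 0.0268). Its difference in GS115-YPAH5x missed the threshold (log2 fold change 0.41, 95% interval 0.0085 to 0.80, edgeR adjusted p = 0.073). Intervals of log2 fold changes are not adjusted for the number of genes tested, whereas the adjusted p is. The call for X33-YPA was lost without library B (0.29), C (0.57), D (0.37) or F (0.49). In GS115-YPAH5x the test was passed without GS115-YPA library A (0.62). BQ9382_C1-8125 passed in neither (log2 fold change 0.32, 95% interval -0.067 to 0.70, in X33-YPA, and 0.15, 95% interval -0.23 to 0.53, in GS115-YPAH5x), but passed in both without GS115-YPA library A (0.54 and 0.37).

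The share of H3 and H4 counts that came from the BQ9382_C2 pair therefore differed between the groups. Of the counts of both paired H3 genes, BQ9382_C2-1150 held 2.10% and 2.43% in libraries A and B, 31.9% and 32.3% in C and D, and 23.5% and 19.9% in E and F. Of the counts of both H4 genes, BQ9382_C2-1155 held 2.03% and 2.52% in libraries A and B, 36.4% and 38.1% in C and D, and 28.2% and 22.3% in E and F. Each share's 95% Wilson interval, which covers counting error only, was narrower than the gap between any 2 groups. In log2 terms the ratio of the BQ9382_C2 copy to the BQ9382_C1 copy was higher than in GS115-YPA by 4.36 for H3 and 4.68 for H4 in X33-YPA, and by 3.58 and 3.86 in GS115-YPAH5x. The groups did not overlap, but an exact two-sided permutation test of 2 libraries against 2 cannot give a p below 0.333, which is the p it gave. The sources at hand give neither gene lengths nor the treatment of reads that match both copies. The shares, and the changes of each copy, are therefore uncertain where reads were split between copies.

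**Figure D2:**
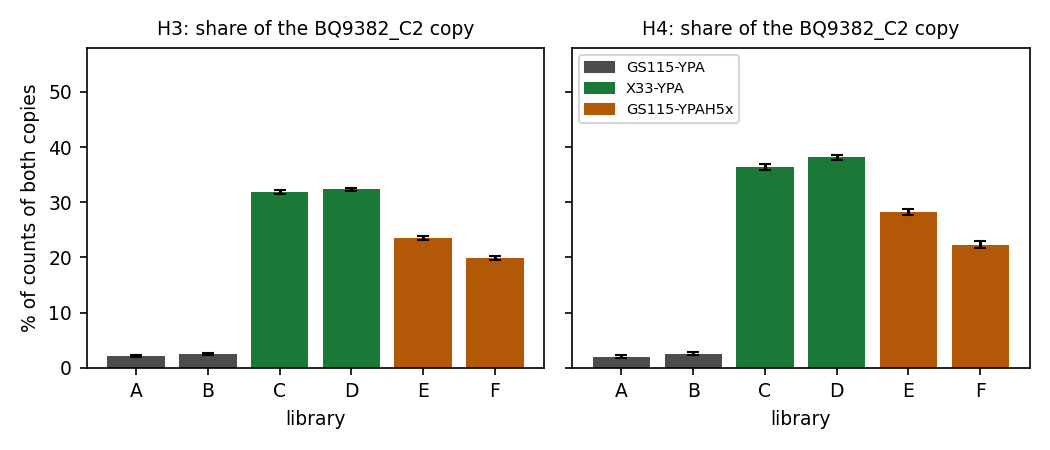
Share of the counts of both paired H3 genes (left) and both paired H4 genes (right) held by the BQ9382_C2 copy in each library, in percent; bars are coloured by group and error bars are 95% Wilson intervals of the counts. The 2 GS115-YPA libraries stay between 2.03% and 2.52%, and the other 4 libraries lie between 19.9% and 38.1%.

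When the counts of both copies were summed, a step chosen after the counts were seen, H3 and H4 were higher in both groups than in GS115-YPA by far less than the BQ9382_C2 copies alone. Summed H3 had 920 and 661 CPM in libraries A and B, 1510 and 1744 in C and D, and 1294 and 1320 in E and F. Its log2 fold change was 1.04 (SE 0.18, edgeR adjusted p = 0.000573) in X33-YPA and 0.73 (SE 0.18, edgeR adjusted p = 0.00582) in GS115-YPAH5x. Summed H4 had log2 fold changes of 0.95 (SE 0.17, edgeR adjusted p = 0.000838) and 0.54 (SE 0.17, edgeR adjusted p = 0.0219). The call of summed H4 in GS115-YPAH5x was lost without GS115-YPA library B (0.32) and without GS115-YPAH5x library E (0.48) or F (0.57). It was also lost with scaling by total counts (0.33) or by the upper quartile (0.40).

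The neighbouring H2A and H2B genes rose together in both groups. The H2A gene BQ9382_C2-4685 had 109 and 70.9 CPM in libraries A and B, 503 and 473 in C and D, and 455 and 426 in E and F. The H2B gene BQ9382_C2-4690, the only one annotated for this histone, had 62.5 and 67.5 CPM in libraries A and B, 359 and 363 in C and D, and 274 and 228 in E and F. For both genes every library of X33-YPA and GS115-YPAH5x lay above both GS115-YPA libraries. BQ9382_C2-4685 had a log2 fold change of 2.44 (SE 0.20, edgeR adjusted p = 5.89e-06) in X33-YPA and 2.29 (SE 0.20, edgeR adjusted p = 1.06e-05) in GS115-YPAH5x. BQ9382_C2-4690 had 2.47 (SE 0.15, edgeR adjusted p = 9.87e-07) and 1.95 (SE 0.15, edgeR adjusted p = 4.79e-06). The pair was thus between 3.86-fold and 5.55-fold higher than in GS115-YPA, with both genes close to each other and neither near the 16-fold or larger rise of the BQ9382_C2-1150 pair.

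By locus tag, BQ9382_C4-4500 and BQ9382_C2-3035 stand apart from the other core histone genes. The H2A gene BQ9382_C4-4500 had 88.3 and 78.8 CPM in libraries A and B, 181 and 217 in C and D, and 141 and 145 in E and F. It rose in both groups without overlap, with log2 fold changes of 1.25 (SE 0.15, edgeR adjusted p = 5e-05) and 0.78 (SE 0.15, edgeR adjusted p = 0.00128). The H3 gene BQ9382_C2-3035, assigned a UniRef100 protein other than that of the paired H3 genes, had 16.6 and 16.4 CPM in libraries A and B, 47.3 and 51.5 in C and D, and 73.0 and 72.3 in E and F. It was the only one of the 9 that was highest in GS115-YPAH5x in all its libraries, its log2 fold change being 1.58 (SE 0.13, edgeR adjusted p = 5.33e-06) for X33-YPA and 2.14 (SE 0.13, edgeR adjusted p = 1.55e-06) for GS115-YPAH5x.

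BQ9382_C2-4680, whose locus tag precedes that of the H2A gene BQ9382_C2-4685, went the other way at a low level. It is named histone H2A in 1 description and an uncharacterized protein in the other, and had between 72 and 288 counts per library. Its level was 7.5 and 3.62 CPM in libraries A and B, 2.01 and 2.82 in C and D, and 2.07 and 2.22 in E and F, so that the duplicates of GS115-YPA differed more from each other than library B did from the other groups. It fell by 1.19 on the log2 scale in X33-YPA (SE 0.35, edgeR adjusted p = 0.0123) and in GS115-YPAH5x its log2 fold change was -1.37 (SE 0.35, edgeR adjusted p = 0.00778). The call in X33-YPA was lost without GS115-YPA library A (-0.61) or X33-YPA library C (-1.01), and the value in GS115-YPAH5x was -0.80 without GS115-YPA library A.

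In X33-YPA, 7 of the 9 core histone genes rose and 1 fell, beside 33.4% of all genes tested that rose and 32.8% that fell. In GS115-YPAH5x, 6 rose and 1 fell, beside 30.7% and 29.1% of all genes. The libraries compared did not overlap for 9 of the 9 genes in X33-YPA and for 8 in GS115-YPAH5x, but this holds for 81.5% and 80.9% of all genes as well. Their median log2 fold change was 1.58 in the former comparison and 1.95 in the latter, beside medians of 0.013 and 0.00051 over all genes tested. The study's stricter threshold, which also asks for a log2 fold change of 2 or more in size, was passed by 4 of the 9 in each comparison. These were BQ9382_C2-1150, BQ9382_C2-1155 and BQ9382_C2-4685 in both, with BQ9382_C2-4690 in X33-YPA and BQ9382_C2-3035 in GS115-YPAH5x. Of all genes, 2.54% in X33-YPA and 2.62% in GS115-YPAH5x were called higher by it.

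Compared directly, the histone genes differed between X33-YPA and GS115-YPAH5x by at most a log2 fold change of 0.97. These groups differ both in strain and in added histidine, which cannot be told apart in this comparison. Relative to GS115-YPAH5x, 4 of the 9 were higher in X33-YPA, as were 19.8% of all genes, and 1 was lower, as were 21.6%. The libraries of 7 did not overlap, against 77.9% of all genes. BQ9382_C2-1150 was higher by 0.88 (SE 0.16, edgeR adjusted p = 0.00268) and BQ9382_C2-1155 by 0.97 (SE 0.17, edgeR adjusted p = 0.0022). Both calls remained when any single library was left out, with log2 fold changes between 0.76 and 1.21. BQ9382_C2-4690 (0.52, SE 0.14, edgeR adjusted p = 0.0167) and BQ9382_C4-4500 (0.47, SE 0.14, edgeR adjusted p = 0.0261) were higher too, whereas BQ9382_C2-3035 was lower (log2 fold change -0.56, SE 0.12, edgeR adjusted p = 0.007). These 3 calls each depended on single libraries, in fits that also called fewer of all genes in each direction. That of BQ9382_C2-4690 was lost without library C (0.53), D (0.51) or F (0.39), that of BQ9382_C4-4500 without D (0.34), E (0.46) or F (0.49), and that of BQ9382_C2-3035 without C (-0.50), E (-0.55) or F (-0.57). BQ9382_C2-4685 did not pass (log2 fold change 0.15, 95% interval -0.28 to 0.58), nor did BQ9382_C1-8120 (0.11, -0.29 to 0.51), BQ9382_C1-8125 (0.17, -0.21 to 0.55) and BQ9382_C2-4680 (0.18, -0.64 to 1.0).

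**Figure D3:**
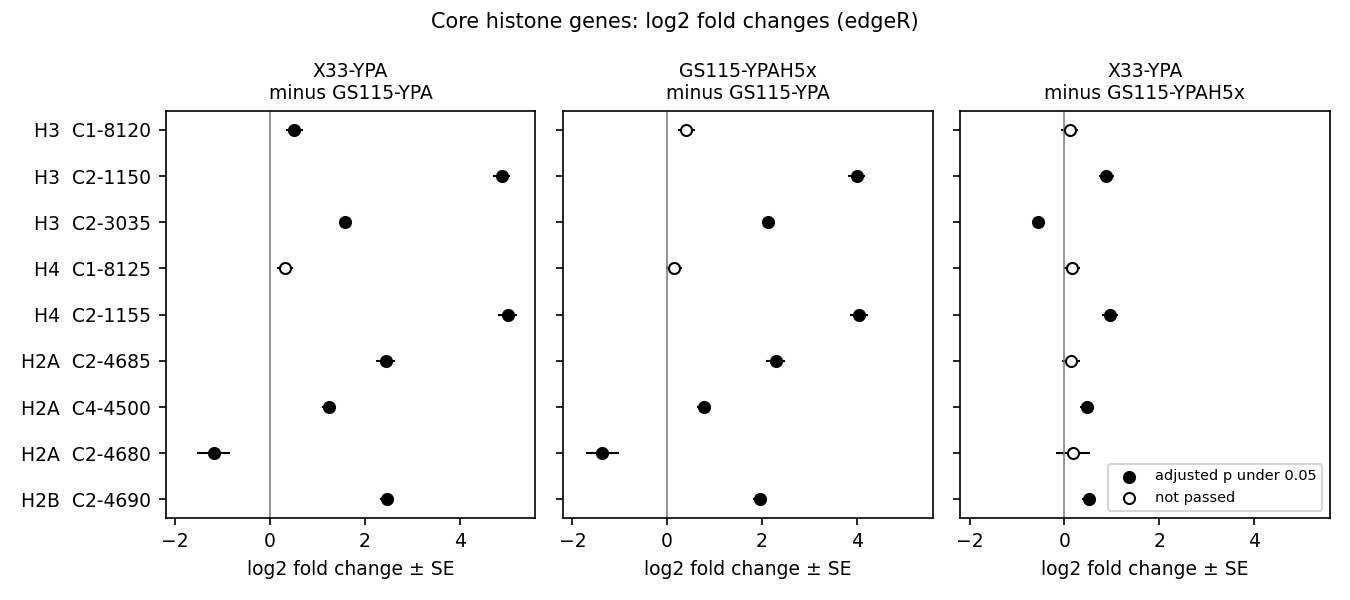
Log2 fold change with its SE for each of the 9 core histone genes in the 3 comparisons, on 1 common axis; filled points passed an adjusted p under 0.05 from edgeR and open points did not. BQ9382_C2-1150 and BQ9382_C2-1155 lie at 4.0 or above against GS115-YPA in both comparisons, BQ9382_C2-4680 lies below 0 in both, and all genes lie between -0.56 and 0.97 when X33-YPA is set against GS115-YPAH5x.

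The levels of the 4 histones did not keep 1 proportion. All 9 genes together took 0.172% and 0.121% of the counts in libraries A and B, 0.366% and 0.374% in C and D, and 0.251% and 0.241% in E and F. In GS115-YPA their levels summed to 1413 ± 301 CPM (SD, n = 2), in X33-YPA to 3427 ± 184 CPM, and with added histidine to 2742 ± 60.8 CPM. The H2A and H2B pair together held 155 ± 23.3 CPM in the untreated auxotroph, 849 ± 18.7 CPM in the prototroph and 692 ± 53.0 CPM in the auxotroph with histidine, whereas both H3 and H4 pairs together held 1152 ± 268, 2327 ± 173 and 1832 ± 10.1 CPM in the same order. The log2 ratio of the former sum to the latter was -2.97 and -2.80 in libraries A and B, -1.35 and -1.55 in C and D, and -1.33 and -1.48 in E and F. It was lowest in both GS115-YPA libraries, and the other groups overlapped. The pair sums leave out the H2A genes BQ9382_C4-4500 and BQ9382_C2-4680 and the H3 gene BQ9382_C2-3035. The H2A and H2B pair was 5.48-fold the GS115-YPA level in X33-YPA and 4.47-fold in GS115-YPAH5x. H2A from BQ9382_C2-4685 and BQ9382_C4-4500 together was only 3.96-fold and 3.37-fold. Both H3 and H4 pairs together were 2.02-fold and 1.59-fold, so the gap was smaller when BQ9382_C4-4500 was counted. These sums and the log2 ratio were not tested.

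Among genes for histone chaperones and for regulators of histone genes, which escort histones to DNA or set their transcription, some rose and some fell. The list matched 21 genes by description. In X33-YPA, 8 of these rose (38.1%, beside 33.4% of all genes) and 6 fell (28.6%, beside 32.8%), the median log2 fold change being 0.22. In GS115-YPAH5x, 6 rose (28.6%, beside 30.7%) and 2 fell (9.52%, beside 29.1%), with a median of 0.18. BQ9382_C3-2035, annotated as the large subunit of chromatin assembly factor 1, which deposits H3 and H4 behind the replication fork, had 24.9 and 17.5 CPM in libraries A and B, 129 and 169 in C and D, and 51.6 and 51.5 in E and F. It rose most of the list in both groups, with log2 fold changes of 2.82 (SE 0.20) and 1.28 (SE 0.19), and was higher in X33-YPA than in GS115-YPAH5x by 1.53 (SE 0.19, edgeR adjusted p = 0.000549). BQ9382_C4-4960, for the H3 and H4 chaperone Asf1, had 3.60 and 3.76 CPM in libraries A and B, 10.9 and 11.6 in C and D, and 4.5 and 5.0 in E and F. Its log2 fold change was 1.61 (SE 0.19, edgeR adjusted p = 4.40e-05) in X33-YPA and 0.37 (SE 0.19, edgeR adjusted p = 0.119) in GS115-YPAH5x, and the direct difference was 1.24 (SE 0.18, edgeR adjusted p = 0.00108). The other subunits matched to chromatin assembly factor 1, BQ9382_C3-5120 and BQ9382_C3-3960, did not pass, their log2 fold changes being 0.02 and 0.03 for X33-YPA, and 0.23 and -0.21 for GS115-YPAH5x.

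Genes of the HIR complex, which in Saccharomyces cerevisiae represses histone genes outside S phase, did not move as 1. BQ9382_C2-1420, annotated as a HIR subunit, had 12.6 and 11.5 CPM in libraries A and B, 4.17 and 2.91 in C and D, and 11.4 and 13.1 in E and F. It was low in X33-YPA and at the level of GS115-YPA in GS115-YPAH5x, with log2 fold changes of -1.77 (SE 0.21, edgeR adjusted p = 5.44e-05) and 0.02 (SE 0.20, edgeR adjusted p = 0.922) and a direct difference of -1.80 (SE 0.21, edgeR adjusted p = 0.000412). BQ9382_C3-5325, annotated as HIR1, fell in both (log2 fold changes -1.19, SE 0.18, and -0.66, SE 0.18), and BQ9382_C2-2555, annotated as histone transcription regulator 3, passed in neither (0.12 and -0.25). BQ9382_C2-0790, described as an acetylase that activates histone genes, had 6.56 and 7.93 CPM in libraries A and B, 8.51 and 9.15 in C and D, and 6.83 and 9.68 in E and F. It did not pass in either (log2 fold changes 0.28 and 0.18, both with SE 0.21), and its groups overlapped in GS115-YPAH5x. BQ9382_C2-4840, named a histone gene expression regulation protein in 1 description, rose in GS115-YPAH5x (0.76, SE 0.15, edgeR adjusted p = 0.00153). It did not pass in X33-YPA (0.34, SE 0.15, edgeR adjusted p = 0.0663), and the direct difference was -0.42 (SE 0.15, edgeR adjusted p = 0.0420). BQ9382_C3-2390, for the H3 acetyltransferase Rtt109, fell in both (-1.56 and -1.17, both with SE 0.19).

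The FACT complex moves H2A and H2B out of and back into nucleosomes during transcription and replication. Of the genes described as its subunits, 1 rose and 2 fell in X33-YPA. BQ9382_C1-6965, described as a subunit of the Spt16 and Pob3 heterodimer, rose in both groups (log2 fold changes 0.87 and 1.27, both with SE 0.16). BQ9382_C1-1620, annotated as Pob3, fell in X33-YPA (-1.62, SE 0.33, edgeR adjusted p = 0.00171), with no call in GS115-YPAH5x (-0.29, SE 0.32, edgeR adjusted p = 0.452). BQ9382_C3-6165 is named the FACT subunit SSRP1 in 1 description and an uncharacterized protein in the other. It likewise fell in X33-YPA (-0.90, SE 0.20, edgeR adjusted p = 0.0032) and had no call in GS115-YPAH5x (-0.23, SE 0.20, edgeR adjusted p = 0.341). A further description of BQ9382_C1-1620 names SSRP1 as well, so the 2 genes that fell are not shown to be 2 different subunits. The elongation factor and histone chaperone gene SPT6 (BQ9382_C4-3630) rose in both (0.88 and 1.10, both with SE 0.14), as did BQ9382_C1-6955, for the H2A.Z chaperone Chz1 (0.87 and 0.86, both with SE 0.17). The list also holds BQ9382_C4-2905, a subunit of the CCR4-NOT deadenylase that shares the name CAF1 and is no histone chaperone, which passed in neither. In the direct comparison 5 of the 21 were higher in X33-YPA (23.8%, beside 19.8% of all genes) and 6 lower (28.6%, beside 21.6%).

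**Figure D4:**
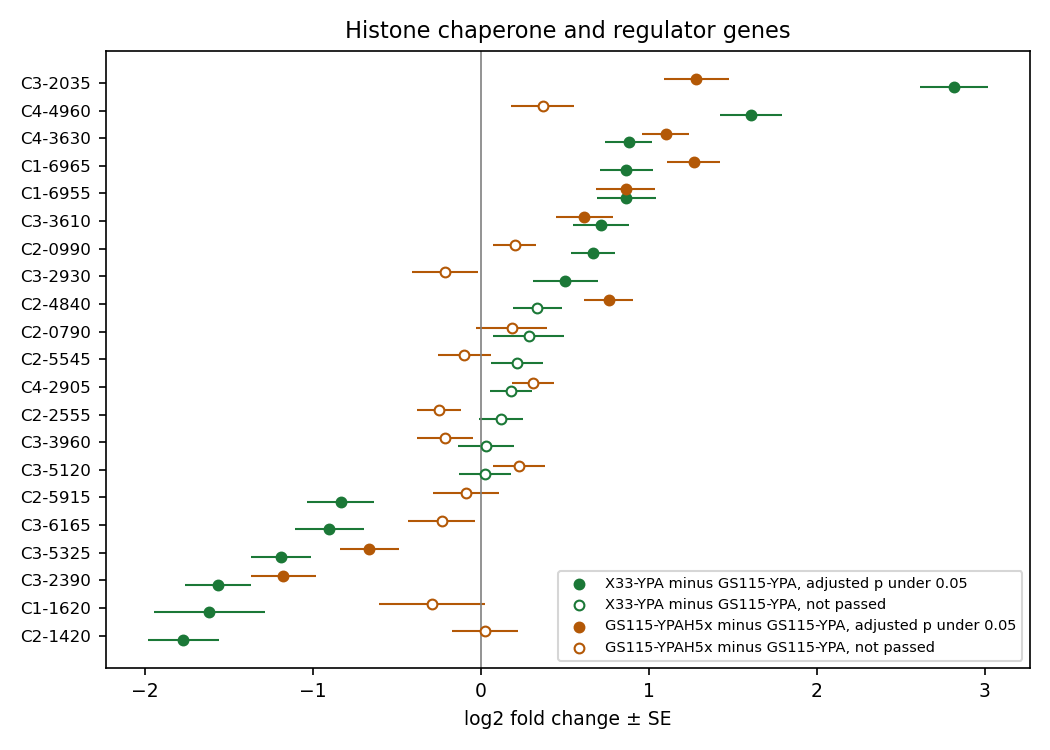
Log2 fold change with its SE against GS115-YPA for the 21 genes matched as histone chaperones or regulators of histone genes, ordered by the value in X33-YPA; colour marks the group compared, and open points did not pass an adjusted p under 0.05 from edgeR. BQ9382_C3-2035 stands highest in both groups (2.82 and 1.28), and BQ9382_C2-1420 stands lowest in X33-YPA (-1.77) but at 0.02 in GS115-YPAH5x.

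Genes for enzymes that modify histones and for chromatin remodelling were called higher about as often as all genes (33.4% in X33-YPA and 30.7% in GS115-YPAH5x) and lower less often than the 32.8% and 29.1% of all genes, differences that were not tested. Of 69 genes for histone acetyltransferases, deacetylases, methyltransferases, demethylases and their complexes, 21 were higher (30.4%) and 19 lower (27.5%) in the prototroph, and 22 higher (31.9%) and 15 lower (21.7%) with added histidine. BQ9382_C3-1560, annotated as an H4 methyltransferase, rose (log2 fold changes 1.66 and 1.84, both with SE 0.16), and so did the SAGA subunit gene BQ9382_C3-2590, annotated as Spt7 (1.16 and 1.29, both with SE 0.14). BQ9382_C4-4880, for the H4 acetyltransferase Esa1, fell (-1.44 and -0.97, both with SE 0.14). BQ9382_C2-4675, for a subunit of the H3 methyltransferase complex COMPASS, fell by 2.51 (SE 0.22) and by 1.27 (SE 0.20), and it precedes the histone gene BQ9382_C2-4680 by locus tag. Of 36 genes of remodelling complexes, 14 were higher (38.9%) and 8 lower (22.2%) in the prototroph, and 11 higher (30.6%) and 7 lower (19.4%) with added histidine. BQ9382_C2-3670, for a protein of the SWR1 complex, which exchanges H2A for H2A.Z, had 24.9 and 27.6 CPM in libraries A and B, 2.49 and 2.2 in C and D, and 4.02 and 3.89 in E and F. It fell most of this list (log2 fold changes -3.49, SE 0.18, and -2.73, SE 0.17). Rises were smaller, as in BQ9382_C1-5755 of the SWI/SNF complex (1.10 and 1.07, both with SE 0.13).

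Many genes of DNA replication in budding yeast are transcribed in the same phase as histone genes, and their part in the result was not tested here. Of 46 genes matched by description, 27 were higher (58.7%, beside 33.4% of all genes) and 2 lower (4.35%, beside 32.8%) in the prototroph, the median log2 fold change was 0.74, and 17 did not pass. With added histidine 26 were higher (56.5%, beside 30.7%) and 5 lower (10.9%, beside 29.1%), with a median of 0.72, and 15 did not pass. The 2 that fell in X33-YPA were BQ9382_C2-5895, described as a ribonucleotide reductase alpha subunit, and BQ9382_C3-5205, named MCM9 in 1 description and a transcriptional activator in the other (log2 fold change -0.58). Without library B, 4 fell in X33-YPA, and in GS115-YPAH5x the number that fell ranged from 1 to 6 when single libraries were left out. Both genes annotated as the alpha subunit of ribonucleotide reductase, which makes the building blocks of DNA, went opposite ways. BQ9382_C1-3085 had 15.3 and 16.9 CPM in libraries A and B, 280 and 293 in C and D, and 306 and 262 in E and F. BQ9382_C2-5895 had 51.5 and 43.3 CPM in libraries A and B, 14.6 and 11.1 in C and D, and 20.9 and 20.6 in E and F, and fell in both groups (log2 fold changes -1.89, SE 0.17, and -1.19, SE 0.17). Of all genes outside the 9, the level of BQ9382_C1-3085 over the 6 libraries was the most like the mean of BQ9382_C2-1150 and BQ9382_C2-1155, a choice of reference made after their values were seen. Likeness was measured as the root mean square difference of log2 CPM after each gene was centred on its own mean, and was 0.42. It was 0.44 for BQ9382_C3-2685, annotated as cell wall protein Tip1p, 0.49 for BQ9382_C1-2305, named RNA polymerase II subunit RPB1 in 1 description and an uncharacterized protein in the other, 0.50 for BQ9382_C4-3315, a predicted protein, and 0.51 for BQ9382_C2-5085, whose descriptions differ.

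The mean of all 9 histone genes was most like that of BQ9382_C4-2080, annotated as L-galactonate dehydratase (root mean square difference 0.10). BQ9382_C4-0540, named after transcription factor SOX-17 in 1 description, BQ9382_C2-5885, a subunit of a phosphatidylinositol 3-kinase complex, and BQ9382_C1-0605, required for beta-1,6-glucan, were also among the most similar (0.10, 0.10 and 0.11). By locus tag, the genes on each side of the BQ9382_C2-1150 pair differed far less than the pair itself. BQ9382_C2-1145, named for loss of respiratory capacity, had log2 fold changes of 1.55 and 1.14 (both with SE 0.13), and BQ9382_C2-1160, a mannosyltransferase gene, had 0.89 and 0.34 (both with SE 0.17; adjusted p = 0.001 and 0.103 from edgeR). The genes beside the abundant pair, BQ9382_C1-8115 and BQ9382_C1-8130, had 0.72 and 0.34, and 0.75 and 1.09. These neighbours were looked up after the counts were seen, and their positions are not given in the count table.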

How the data were processed

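The authors deposited whole-number read counts, 1 column for each library and 1 row for each gene. Tools named in the submitters' processing notes, in no stated order, are DESeq2, featureCounts 1.6.4, Bowtie2, fastp 0.19.6 and bcl2fastq 2.19.0.316. The sources at hand name neither a genome build nor a strand setting, nor what was done with reads that match several places, so copies of 1 histone may share reads, as may overlapping or antisense genes. Ribosomal RNA was depleted with a kit for bacteria.

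EdgeR 4.0.16 (R 4.3.3) was used on them as deposited: filterByExpr (5426 of 5427 genes kept), TMM, and the quasi-likelihood test with all 6 libraries in 1 fit, 3 residual degrees of freedom and no covariate. Benjamini-Hochberg adjustment ran over all genes tested, and each SE is the log2 fold change divided by the square root of the F statistic. The procedure was tested on simulated data, with 1 spread for all genes and far fewer changed genes than were called here. That test therefore does not check the scaling or the estimate of spread in these data. Genes were grouped by words in their descriptions, and the list for variant and linker histones matched 1 gene, BQ9382_C1-6450, a suppressor and no histone, with log2 fold changes of -0.40 and -0.35 that did not pass. Named are all core histone genes, the 3 called genes with the smallest adjusted p in each direction of the other lists in X33-YPA against GS115-YPA (not all are printed), the 5 genes with the most similar profile (1 is not reported here), and others chosen after their values were seen. The members and lists were chosen with earlier results of these data known. The reference table at hand covers another strain and matched 0 locus tags, so no sequence, promoter motif or coordinate was used. The 17 other settings tried were other scalings, filters, fits and thresholds, DESeq2 1.42.0, and each library left out.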

Additional observations from a re-analysis of the deposited data

How the results depend on the processing

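No paired analysis was made, because the labels do not pair libraries across groups. The rises of BQ9382_C2-1150, BQ9382_C2-1155 and BQ9382_C2-4685 against GS115-YPA passed under every one of the 17 other settings. Scaling by total counts moved the median of all genes by -0.20 in GS115-YPAH5x against GS115-YPA and to 0.29 in X33-YPA against GS115-YPAH5x, and scaling by the upper quartile moved them to -0.13 and 0.15. With total counts, BQ9382_C1-8125 reversed to -0.0621 in GS115-YPAH5x, and 0 histone genes were lower in X33-YPA than in GS115-YPAH5x. In GS115-YPAH5x 11 of 36 remodelling and 8 of 46 replication genes fell, beside 2031 of all 5426 genes. In the direct comparison 3 of 21 chaperone or regulator genes were lower, beside 671 of all 5426. With the upper quartile 3 were lower as well, beside 937 of all genes. A minimum of 10 CPM removed BQ9382_C2-4680, leaving 0 histone genes that fell.

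With a log2 fold change of at least 2 asked for as well, X33-YPA had 4 histone genes higher and 0 lower, GS115-YPAH5x had 0 lower, and 0 differed directly. In X33-YPA this left 1 chaperone or regulator gene higher and 0 lower, and 0 and 2 modifying enzymes. It also left 0 and 1 remodelling genes, and 6 and 0 replication genes, beside 138 and 231 of all genes. In GS115-YPAH5x it left 0 and 0, 1 and 0, 0 and 1, and 3 and 0 of these lists, beside 142 and 147 of all genes. Directly, 0 chaperone or regulator genes differed, and of all genes 2 were higher and 40 lower. At an adjusted p under 0.01, 0 of 9 histone genes fell in X33-YPA, beside 1414 of all 5426 genes. Of the 9, 2 were higher in the direct comparison, beside 487 of all genes. In GS115-YPAH5x 2 of 46 replication genes fell, beside 1124 of all genes. Directly, 2 of 21 chaperone or regulator genes were higher and 1 lower, beside 487 and 690 of all genes. DESeq2 gave 3 of 46 replication genes that fell in GS115-YPAH5x, beside 1585 of 5427 genes. It passed BQ9382_C1-8120 there (log2 fold change 0.41, adjusted p = 0.0412 from DESeq2).

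Leaving out single libraries gave 0 to 1 histone genes that fell in X33-YPA (0 without A or C), 2 to 4 higher directly (2 without D or F) and 0 to 1 lower directly (0 without C, E or F). BQ9382_C1-8125 ranged from -0.0772 (without B) to 0.37 in GS115-YPAH5x, and BQ9382_C2-4680 from -0.0926 (without D) to 0.40 directly. Chaperone or regulator genes ranged from 1 to 2 lower in GS115-YPAH5x, and directly from 2 to 5 higher and 3 to 7 lower. Replication genes that fell ranged from 2 to 4 in X33-YPA and from 1 to 6 in GS115-YPAH5x. The numbers called over all genes moved in these fits as well. In the direct comparison, fewer of all genes were called in each direction without C, D, E or F. The ranges therefore only show how far counts depended on single libraries. The causes were not tested.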
